A study of Mus musculus with 6 samples.

Results

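The syntrophin and dystrophin complex genes were followed in MIN6-4N, an insulin-producing beta cell line from a mouse insulinoma, in a clone stably transfected with the expression plasmid pcDNA3.1 carrying mouse Meg3, an imprinted long non-coding RNA, and in a clone with the empty plasmid. The group holds the syntrophin genes Sntg1, Sntg2, Sntb1 and Sntb2, the dystrophin gene Dmd and its relative Utrn, and the dystrobrevin genes Dtna and Dtnb. Members were taken by name, from probe sets to which the array annotation gave exactly 1 gene symbol. All 8 genes were found, with 262 probe sets, of 20416 genes and 212097 such probe sets in all. The members were chosen by gene values of these same arrays: the group was drawn up around Sntg1, whose Meg3 minus vector difference ranked 3 from the highest of all genes. Differences of the members between the clones are therefore given as a description, with no p-value.

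The Meg3 clone and the vector clone were each represented by 3 independent cultures, with 1 Affymetrix array per culture. Both clones were selected for 5 weeks in G418 at 750 µg/ml and then grown in 15% serum with G418 at 500 µg/ml. Each group is 1 clone, so what the Meg3 plasmid did and what set these clones apart otherwise cannot be told apart, and errors measure the spread between cultures. The titles and the extraction protocol number the Meg3 clone differently, and a sort of cells named in the descriptions has no protocol.

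Dystrophin is a long rod-shaped protein that ties cortical actin to dystroglycan, a membrane receptor for laminin and other matrix proteins. Utrophin, the product of Utrn, does the same in most tissues outside mature muscle. Syntrophins and dystrobrevins are the cytoplasmic part of the complex: dystrobrevins bind dystrophin or utrophin, and syntrophins bind both and carry a PDZ domain that holds channels, kinases and receptors at the membrane. In beta cells the syntrophin encoded by Sntb2 is known to bind the insulin granule protein encoded by Ptprn.

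Meg3 itself had mean log2 values of 7.24, 7.91 and 7.53 in the Meg3 cultures, against 5.63, 6.00 and 5.88 in the vector cultures, with no overlap. Its difference was 1.72 (SE 0.19; limma, Benjamini-Hochberg adjusted p = 0.00756). Gene values of any pair of arrays correlated at 0.968 to 0.997. Meg3 replicate 1 and vector replicate 2 stood apart. Around the median of the remaining arrays their probe sets had an SD of 0.63 and 0.85, and those of the 4 others 0.42 to 0.48. Both read bright genes lower and dim genes higher than the other arrays of their clone. For Meg3 replicate 1 the median shift was -0.06 for genes above the median level and 0.06 for those at or below it, and for vector replicate 2 it was -0.18 and 0.21. Each member's difference is therefore also given without these 2 arrays. All 10 beta cell markers were above the median level of genes (6.66 on the log2 scale). So were 2 of 10 skeletal muscle, 1 of 10 fibroblast, 1 of 6 glial and 1 of 6 duct and acinar markers. Of 6 other islet markers 4 were, among them the glucagon gene Gcg, at 12.66 in the Meg3 clone and 12.82 in the vector clone. Signal depends on the probes, so levels are not ranked between genes.

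Sntg1, which encodes a syntrophin known mainly from neurons, was the member that differed between the clones. Its gene value, the mean log2 value of its 21 probe sets, was 7.65, 7.42 and 7.63 in the 3 Meg3 cultures, against 5.58, 5.52 and 5.38 in the vector cultures. The lowest Meg3 culture thus lay far above the highest vector culture. The means were 7.56 ± 0.13 in the Meg3 clone and 5.49 ± 0.10 in the vector clone (SD, n = 3 each), a log2 difference of 2.07 (SE 0.12). No fold is given, because the table holds no measure of background and most Sntg1 probe sets read low in the vector clone. Without the 2 arrays that stood apart the difference was 2.04. A difference of at least 1 was found in 0.152% of all genes. These are averages over whole cultures, in which more expressing cells and more RNA per cell cannot be told apart.

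**Figure D1:**
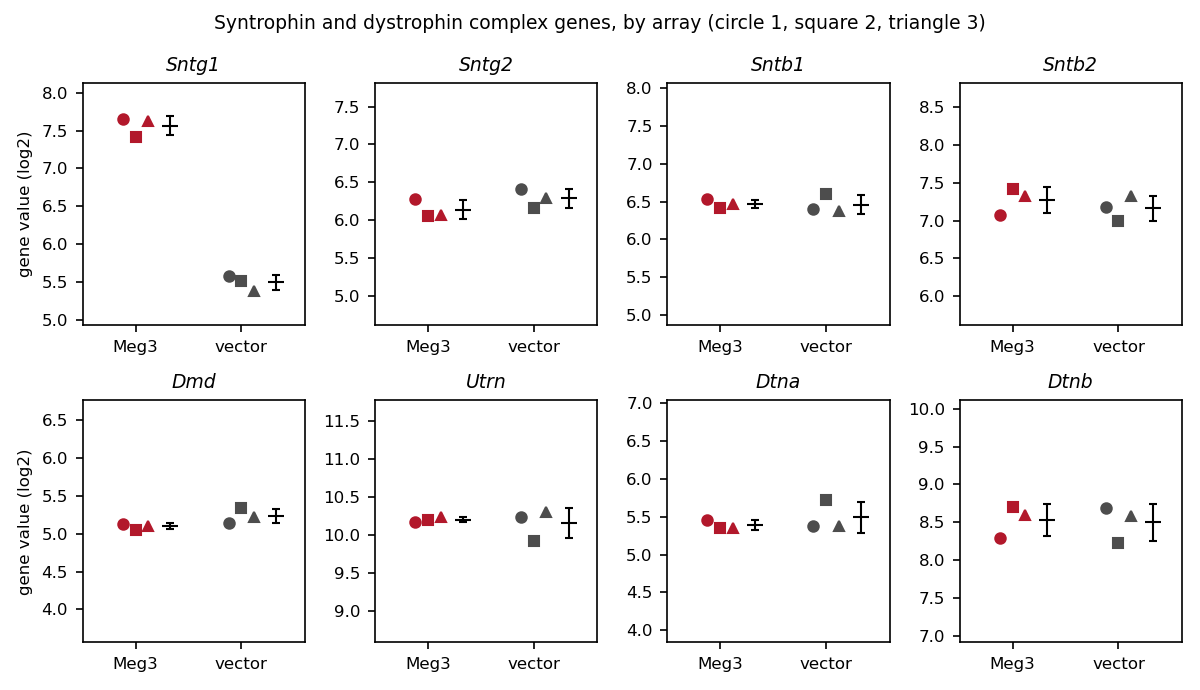
Gene values (mean log2 value of the probe sets of a gene) of the 8 members on each array, Meg3 clone in red and vector clone in grey, with circles, squares and triangles for replicates 1, 2 and 3 and the mean ± SD (n = 3) beside them; every panel spans the same range of log2 units. Sntg1 stands at 7.42 to 7.65 in the Meg3 clone and 5.38 to 5.58 in the vector clone, and the clones lie close together for the other 7 genes.

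The difference was spread over the probe sets of Sntg1. All 21 probe sets were higher in the Meg3 clone, as 51.2% of all probe sets were, with differences from 0.23 to 3.28 and a median of 2.38, and 18 differed by at least 1 on the log2 scale, as 1.32% of all probe sets did. In 20 of the 21, every Meg3 culture lay above every vector culture, as in 6.08% of all probe sets. Nothing is read from these shares, because the clone comparison chose the gene. Tested singly by limma, 0 of the 21 were called, and 2 of all 241419 probe sets were (0.000828%). In the Meg3 clone 17 of the 21 exceeded the median of all probe sets (7.10), whereas in the vector clone 1 did.

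Individual probe sets differed to unequal extents. In the order of probe set IDs, probe set 11 was the one with the largest difference: it read 10.11, 10.15 and 10.06 in the Meg3 cultures, against 6.84, 7.52 and 6.12 in the vector cultures. Probe set 10 read 8.96, 8.67 and 8.94 in the Meg3 cultures, against 6.56, 6.44 and 6.44 in the vector cultures, with little spread in either clone. The exception was probe set 7, dim in both clones, with 4.29, 5.20 and 5.09 in the Meg3 cultures, against 3.93, 5.01 and 4.95 in the vector cultures, so that the clones overlapped. Probe sets 18 and 19 also differed little, by 0.68 and 0.63. The first of this pair read low, with means of 3.97 in the Meg3 clone and 3.29 in the vector clone, and the other averaged 7.62 in the Meg3 clone and 6.98 in the vector clone.

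**Figure D2:**
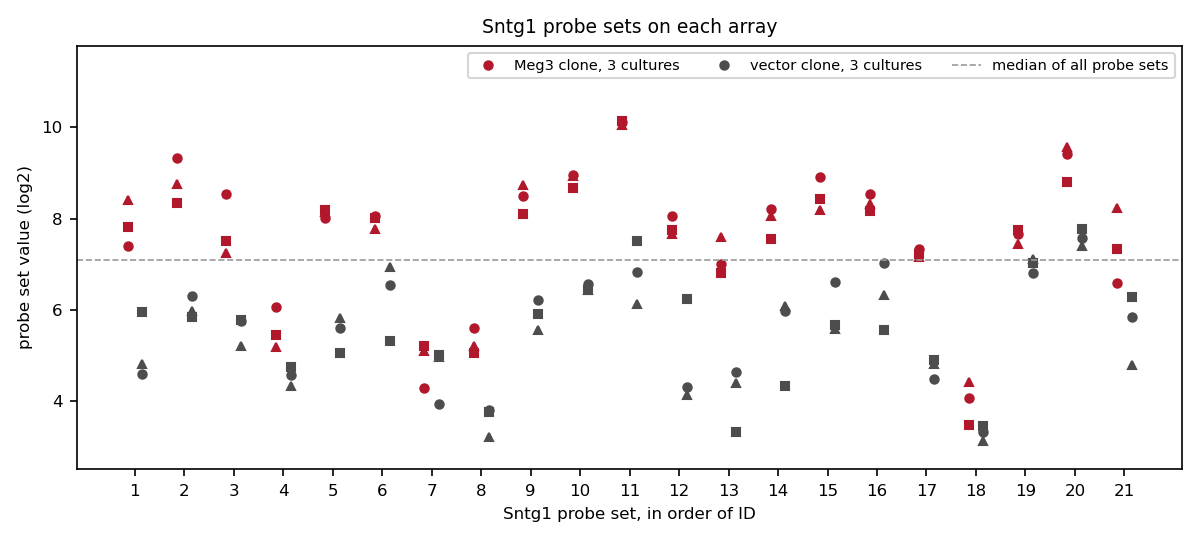
Log2 values of the 21 Sntg1 probe sets on each array, in order of probe set ID, with the Meg3 clone in red, the vector clone in grey and symbols for replicates 1, 2 and 3 as circle, square and triangle; the dashed line is the median of all probe sets (7.10). The clones separate at every probe set except number 7, and 17 means in the Meg3 clone lie above the line.

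Divided by ID order into 4 consecutive blocks of 5 or 6 probe sets, Sntg1 differed by 2.18, 2.03, 2.61 and 1.45, and the clones did not overlap in any of them. The last block thus differed least. Relative to the other 3 blocks of the same array, it stood at -0.84, -0.66 and -0.35 in the Meg3 cultures, against 0.03, 0.49 and 0.08 in the vector cultures, so the clones did not overlap in this measure either. Among the 2749 genes with 20 or more probe sets, 4.29% showed such a separation downwards. Nothing is read from this share, because these same values chose the gene. Probe set IDs follow the order of genes along each strand of a chromosome, with a median Spearman correlation of 0.96 over 38 chromosome strands. Whether they follow position within a gene was not tested.

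The other 3 syntrophins differed little. Sntg2, the other gamma-syntrophin gene, read 6.28, 6.06 and 6.07 in the Meg3 cultures, against 6.41, 6.17 and 6.29 in the vector cultures. These values overlap, and the difference was -0.16 (SE 0.13). Without the 2 arrays that stood apart it was -0.29, and with bright probe sets only it was 0.02. Of its 18 probe sets, 11 were lower, where 48.8% of all probe sets were. In 0 of the 18 did the clones separate, where 11.5% of all probe sets did in either direction.

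Sntb1, a widely expressed syntrophin, read 6.53, 6.42 and 6.47 in the Meg3 cultures, against 6.40, 6.60 and 6.38 in the vector cultures, a difference of 0.01 (SE 0.12). Sntb2, the partner of the granule protein named above, read 7.08, 7.41 and 7.32 in the Meg3 cultures, against 7.17, 6.99 and 7.32 in the vector cultures, a difference of 0.11 (SE 0.14). For both genes the clones overlapped, and without the 2 arrays the differences were 0.06 and 0.12. Sntb1 had 4 of 8 probe sets higher and Sntb2 5 of 8, none differing by more than 0.46. In Sntb2 the clones separated at 2 probe sets, by 0.26 and 0.18, both higher, and in Sntb1 at 1 in each direction. Of all probe sets, 6.08% separated upwards and 5.41% downwards.

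The dystrophin gene Dmd read low on most of its probe sets in both clones. Its gene value, over 80 probe sets, was 5.13, 5.05 and 5.11 in the Meg3 cultures, against 5.14, 5.33 and 5.22 in the vector cultures. The Meg3 cultures lay just below the vector cultures, as for 6.39% of all genes, and the nearest pair differed by little more than 0.01. The difference was -0.13 (SE 0.11), and without the 2 arrays -0.10. Above the median of all probe sets were 14 of 80 in the Meg3 clone and 16 in the vector clone.

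Within Dmd the difference lay at one end of the ID order. The first 3 blocks, of 20 probe sets each, differed by 0.04, -0.07 and -0.07. The last block averaged 5.73, 5.60 and 6.03 in the Meg3 cultures, against 6.22, 6.12 and 6.36 in the vector cultures. All 3 Meg3 cultures lay below all 3 vector cultures, and the difference was -0.45, or -0.48 without the 2 arrays that stood apart. Of the 20 probe sets, 17 were lower, where 48.8% of all probe sets were, and 4 differed by -1 or less, where 1.66% did. This block was singled out after its values were seen.

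Single probe sets of that end varied widely. Probe set 73 read 6.47, 5.03 and 6.60 in the Meg3 cultures, against 7.18, 6.77 and 7.76 in the vector cultures. Probe set 78 read 8.04, 7.24 and 7.61 in the Meg3 cultures, against 8.15, 8.92 and 8.33 in the vector cultures. These were the 2 of the 20 at which the clones separated, both lower, where 5.41% of all probe sets separated downwards. Probe set 62, in the same block, averaged 10.23 ± 0.17 in the Meg3 clone and 10.23 ± 0.17 in the vector clone (SD, n = 3 each), with no difference to 2 decimals.

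The last block lay lower without overlap in 6.73% of the 2749 genes with 20 or more probe sets. Set against the other blocks of its own array, the last block of Dmd stood at 0.81, 0.73 and 1.23 in the Meg3 cultures, against 1.44, 1.05 and 1.52 in the vector cultures. In that measure the clones overlapped, with a difference of -0.42. A difference as low as this or lower was found in 3.16% of those genes.

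**Figure D3:**
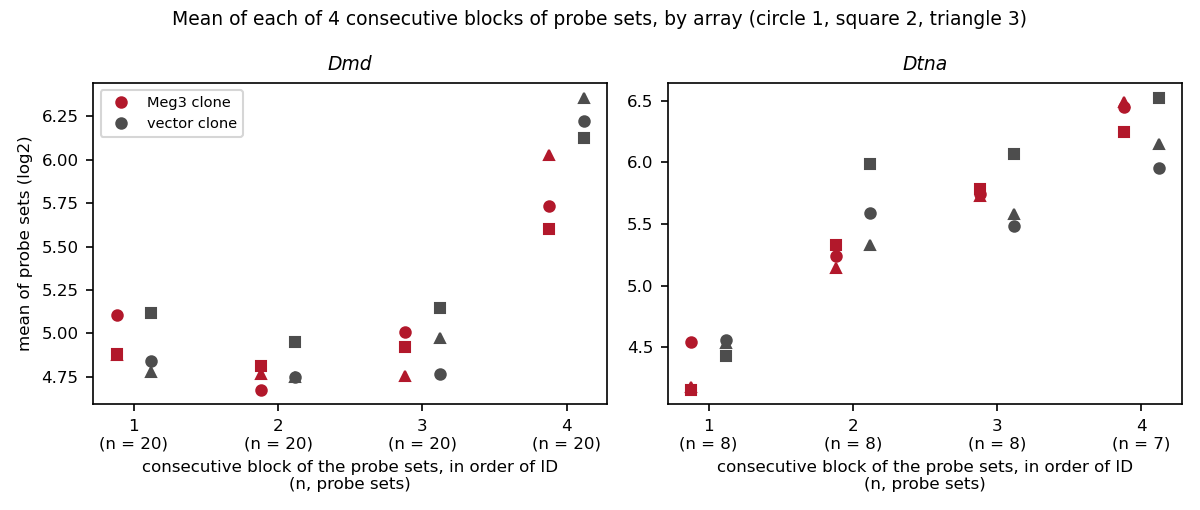
Mean log2 value of each block of the probe sets of Dmd and Dtna, in order of probe set ID, on each array, with the Meg3 clone in red, the vector clone in grey and circles, squares and triangles for replicates 1, 2 and 3; the panels have different vertical ranges. In Dmd the clones separate in the last block (5.60 to 6.03 in the Meg3 clone, 6.12 to 6.36 in the vector clone), and in Dtna narrowly in the second (5.14 to 5.33 in the Meg3 clone, 5.33 to 5.99 in the vector clone).

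Dmd is known for full-length transcripts from upstream promoters, used in muscle and brain, and for short transcripts that start inside the gene and lack the actin-binding end. The annotated gene begins at a start that is not shown here. RefSeq also annotates an upstream and an internal start on the forward strand of chromosome X, 134.2 kb and 2234 kb after that gene start. The 250 bases before each are shown because the difference lay at one end of the gene's probe sets, with CG dinucleotides in capitals (GRCm38.p6, plus strand, chrX:82948620-82948869 for the upstream start and chrX:85048045-85048294 for the internal one).
Upstream start: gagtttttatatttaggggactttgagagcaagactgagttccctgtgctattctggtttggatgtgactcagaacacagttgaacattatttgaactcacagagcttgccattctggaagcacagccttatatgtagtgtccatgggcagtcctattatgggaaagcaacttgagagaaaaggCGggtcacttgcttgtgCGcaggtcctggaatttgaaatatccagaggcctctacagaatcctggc
Internal start: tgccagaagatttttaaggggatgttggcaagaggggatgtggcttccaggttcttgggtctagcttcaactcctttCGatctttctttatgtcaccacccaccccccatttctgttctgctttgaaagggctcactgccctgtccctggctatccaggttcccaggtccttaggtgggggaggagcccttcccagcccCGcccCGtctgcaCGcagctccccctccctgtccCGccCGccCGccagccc
The upstream window holds 2 CG dinucleotides and 45.2% G or C, and 81.2% of the 32851 RefSeq promoter windows of this length hold as many CG or more. The internal window holds 7 CG dinucleotides and 60% G or C, and 46.3% of windows hold as many CG or more. The motif GGGCGG, searched on both strands and itself containing a CG, occurs 0 times in the upstream window and 3 times in the internal one, and 32.7% of windows hold it. The motif TATAAA, searched on both strands, occurs 1 time in the upstream window and 0 times in the internal one, and 12.4% of windows hold it. Whether the last Dmd probe sets lie beyond the internal start was not tested.

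Utrn read high on nearly all of its probe sets in both clones. Its gene value was 10.18, 10.20 and 10.24 in the Meg3 cultures, against 10.23, 9.93 and 10.31 in the vector cultures, so the clones overlapped. The difference was 0.05 (SE 0.13), or -0.05 without the 2 arrays that stood apart. The low vector culture was replicate 2. Of 75 probe sets, 73 exceeded the median of all probe sets in the Meg3 clone and 73 in the vector clone. The probe set differences had an SD of 0.25, against 0.55 in Dmd. The clones separated at 3 of the 75, 2 higher and 1 lower, against 6.08% and 5.41% of all probe sets. The largest difference, 1.30 at probe set 6, rested on 1 array: the Meg3 cultures read 6.95, 8.34 and 7.83, against 8.25, 3.11 and 7.85 in the vector cultures.

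The dystrobrevin genes differed little as gene values. Dtna, which encodes the dystrobrevin of muscle and brain, read 5.46, 5.35 and 5.35 in the Meg3 cultures, against 5.38, 5.73 and 5.37 in the vector cultures. Vector replicate 2 was the high one, and the difference was -0.11 (SE 0.14), or -0.03 without the 2 arrays. With the median of its probe sets in place of their mean it was -0.31. Dtnb, which encodes the dystrobrevin of most other tissues, read 8.29, 8.70 and 8.59 in the Meg3 cultures, against 8.69, 8.22 and 8.58 in the vector cultures. The clones overlapped, and the difference was 0.03 (SE 0.17), or 0.01 without the 2 arrays. The low array of each clone was the one that stood apart.

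In ID order the probe sets of Dtna divided. Its blocks differed by -0.21, -0.40, 0.04 and 0.19 in that order. In the second block, singled out after its values were seen, all 8 probe sets were lower, where 48.8% of all probe sets were. Of these, 6 were lower without the 2 arrays that stood apart. That block averaged 5.24, 5.33 and 5.14 in the Meg3 cultures, against 5.59, 5.99 and 5.33 in the vector cultures, and the nearest cultures of the clones differed by less than 0.01. Among genes with 20 or more probe sets, 5.35% had a second block that separated downwards. The block's difference was -0.23 without the 2 arrays. In the last block 5 of 7 probe sets were higher, where 51.2% of all probe sets were. Probe set 30 read 8.81, 8.76 and 8.85 in the Meg3 cultures, against 8.52, 8.33 and 8.39 in the vector cultures. It was the 1 probe set of the gene at which the clones separated, where 6.08% of all probe sets separated upwards. Relative to the other 3 blocks, the last block stood at 1.28, 1.16 and 1.47 in the Meg3 cultures, against 0.74, 1.03 and 1.00 in the vector cultures, with no overlap. This block too was singled out from its values, and 4.73% of genes with 20 or more probe sets separated upwards in this measure.

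The blocks of Dtnb differed by -0.07, 0.00, -0.02 and 0.21 in ID order, and the clones overlapped in each. At the last probe set of the gene the Meg3 cultures read 6.50, 4.76 and 5.96. The vector cultures read 4.63, 3.83 and 3.86 there, a difference of 1.63 with no overlap. Probe set 18 separated the other way, by -0.55. The remaining Dtnb probe sets overlapped between the clones, where 6.08% of all probe sets separated upwards and 5.41% downwards.

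**Figure D4:**
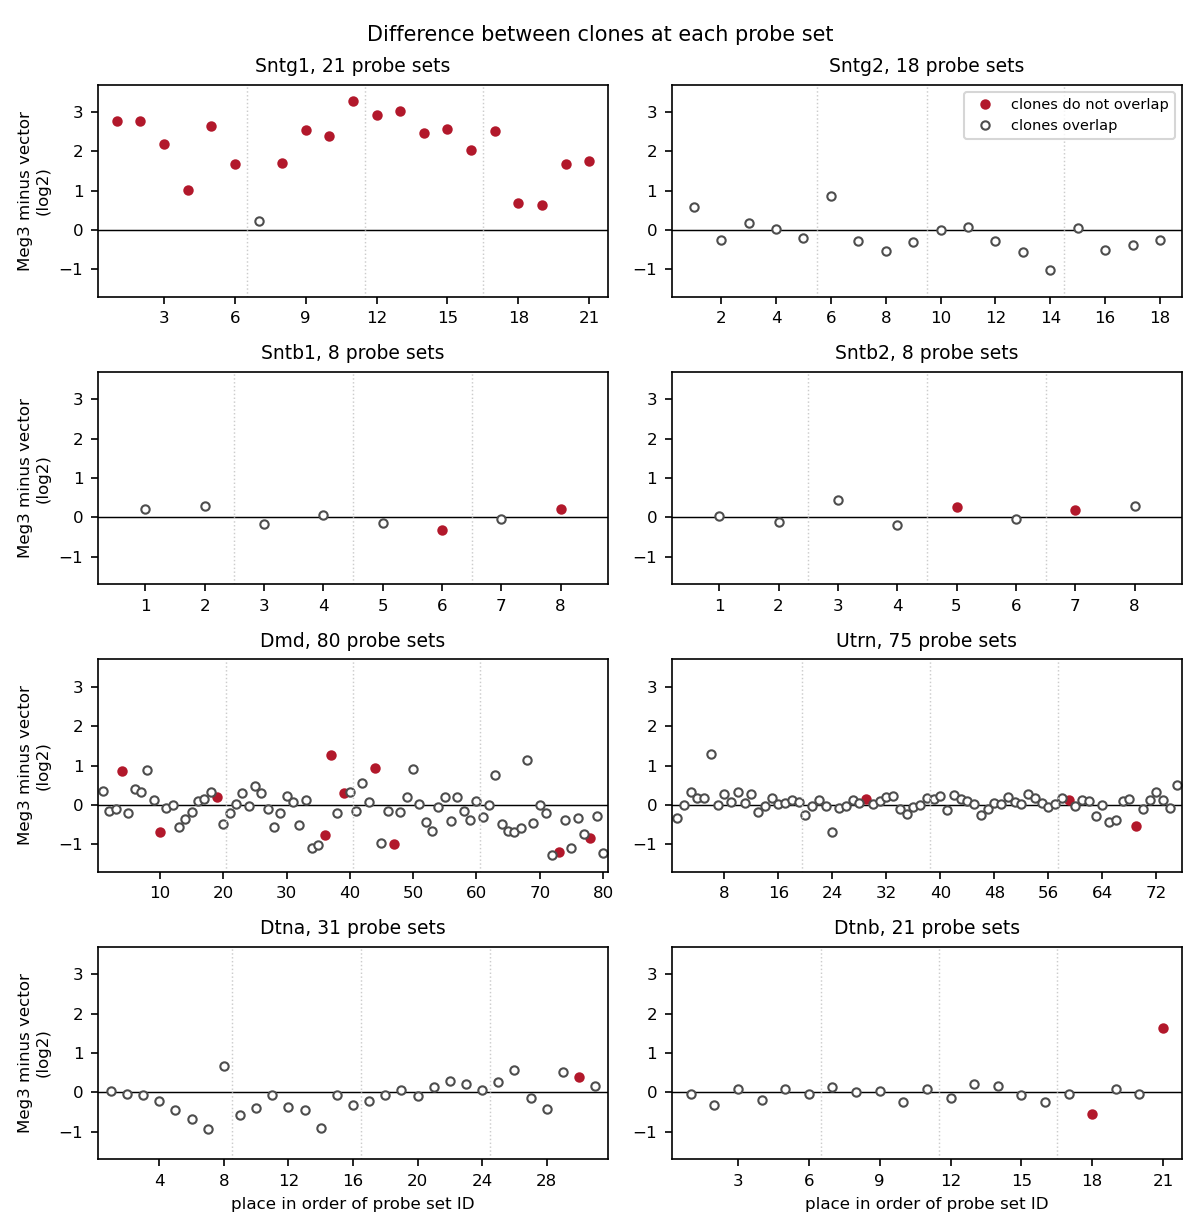
Log2 difference, Meg3 minus vector, at each of the 262 probe sets of the 8 members, in order of probe set ID, with filled red points where the 3 cultures of each clone do not overlap and open points where they do; dotted lines divide each gene into 4 blocks. All 21 Sntg1 points lie above 0, from 0.23 to 3.28, and those of the other genes scatter around 0, with 17 of the last 20 Dmd points below it.

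Across the members, the Meg3 clone read higher for 5 genes and lower for 3, as it did for 51.6% and 48.4% of all genes. Sntg1 was the 1 of 8 called in the limma fit over all genes (adjusted p under 0.05), where 0.201% of genes were called higher and 0.465% lower. Without the 2 arrays that stood apart, where 5.44% of genes were called, Sntg1 was also the 1 member called. The comparison on these same arrays chose the group, so nothing is read from either count. The 7 others had differences from -0.16 to 0.11 with a median of 0.01, and the median over all genes was also 0.01. Of their 241 probe sets, 119 were higher and 122 lower. The clones separated upwards at 12 of them (4.98%) and downwards at 8 (3.32%), against 6.08% and 5.41% of all probe sets. By limma 0 of the 241 were called. The standard errors of the 7 gene differences, from 0.11 to 0.17, were of the same order as the differences, so shifts of this size were not detectable on 6 arrays.

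Among 9450 genes above the median level in at least 1 clone, leaving out unnamed transcripts and a few large families, those whose values followed Sntg1 most closely over the 6 arrays were Kcnma1, a calcium-activated potassium channel gene, Caly, a neuronal vesicle protein gene, the kinase gene Pak3, Rufy3, known from neurons, and the transcriptional cofactor gene Dach2. Their Pearson correlations with Sntg1 ran from 0.994 to 0.999. The 6 arrays are 2 clones of 3 cultures, so such values chiefly describe a step between the clones. The steps differed in size: Dach2 was higher by 1.37, Kcnma1 by 0.96, Pak3 by 0.83, Rufy3 by 0.42 and Caly by 0.27. Of the other members, Sntb2 came closest to Sntg1 (0.31), and Dmd lay farthest, at -0.73.

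The partners of the complex were read from 5 lists, with 64 of 73 listed genes measured. By limma over all genes 0 were called, where 0.666% of all genes were. Before adjustment, 3 higher and 2 lower genes had p under 0.05, where 6.96% of all genes passed. The clones separated upwards for 6 and downwards for 4 of the 64, against 6.41% and 6.39% of all genes. The median difference was -0.02.

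The other core genes of the complex, which span the membrane or join it, had differences from -0.29 to 0.34 in 11 measured genes (median -0.05), with 0 called by limma. Dag1, which encodes dystroglycan, read 7.46, 8.25 and 8.14 in the Meg3 cultures, against 8.45, 7.47 and 8.46 in the vector cultures. The low array of each clone was again the one that stood apart, and the difference was -0.17 (SE 0.31). Sgcb, a sarcoglycan gene, read 9.87, 9.77 and 9.65 in the Meg3 cultures, against 10.06, 10.12 and 9.99 in the vector cultures. Its clones did not overlap, but it was not called (difference -0.29, SE 0.12; adjusted p = 0.632 by limma). Another sarcoglycan gene, Sgcz, singled out from its values, was at 0.34 (SE 0.13; adjusted p = 0.546 by limma), also with no overlap.

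Genes of dystroglycan glycosylation, the sugar chains by which it binds laminin, had a median of -0.08 in 13 measured genes. Pomt2, an O-mannosyltransferase gene, differed by 0.02 (SE 0.23) and Dpm3, a subunit gene of dolichol-phosphate mannose synthase, by -0.08 (SE 0.17). Genes of dystroglycan ligands had a median of 0.03 in 14 measured genes, with the laminin chain gene Lamc1 at -0.06 (SE 0.18) and the synaptic ligand gene Nrxn2 at 0.11 (SE 0.13). In both lists 0 genes were called by limma. Without the 2 arrays that stood apart, where 4.01% of genes were called lower, Lama1, another laminin chain gene and chosen after its value was seen, was called lower, at -0.41 (-0.33 on all 6 arrays, where it was not called).

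Syntrophin partner genes had a median of -0.02 in 14 measured genes, with 0 called by limma. Ptprn, the insulin granule partner of the Sntb2 product, read 9.31, 10.37 and 10.22 in the Meg3 cultures, against 10.63, 9.35 and 10.44 in the vector cultures. Meg3 replicate 1 and vector replicate 2 were about 1 below their clones' other cultures, and the difference was -0.17 (SE 0.38). Dgkz, a diacylglycerol kinase gene whose product is known to bind the Sntg1 product, read 6.37, 6.68 and 6.59 in the Meg3 cultures, against 6.50, 6.43 and 6.60 in the vector cultures, a difference of 0.04 (SE 0.13). Plekha1, an adaptor gene, differed by -0.03 (SE 0.12). Without the 2 arrays that stood apart, where 1.43% of genes were called higher and 4.01% lower, the water channel gene Aqp4 was called higher (0.45) and the calcium pump gene Atp2b4 lower (-0.42), both chosen after their values were seen. On all 6 arrays they were at 0.40 and -0.30 and were not called.

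Cytoskeletal partner genes had a median of 0.01 in 12 measured genes, with 0 called by limma. The actin genes Actb and Actg1 differed by -0.08 (SE 0.22) and -0.25 (SE 0.24).

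**Figure D5:**
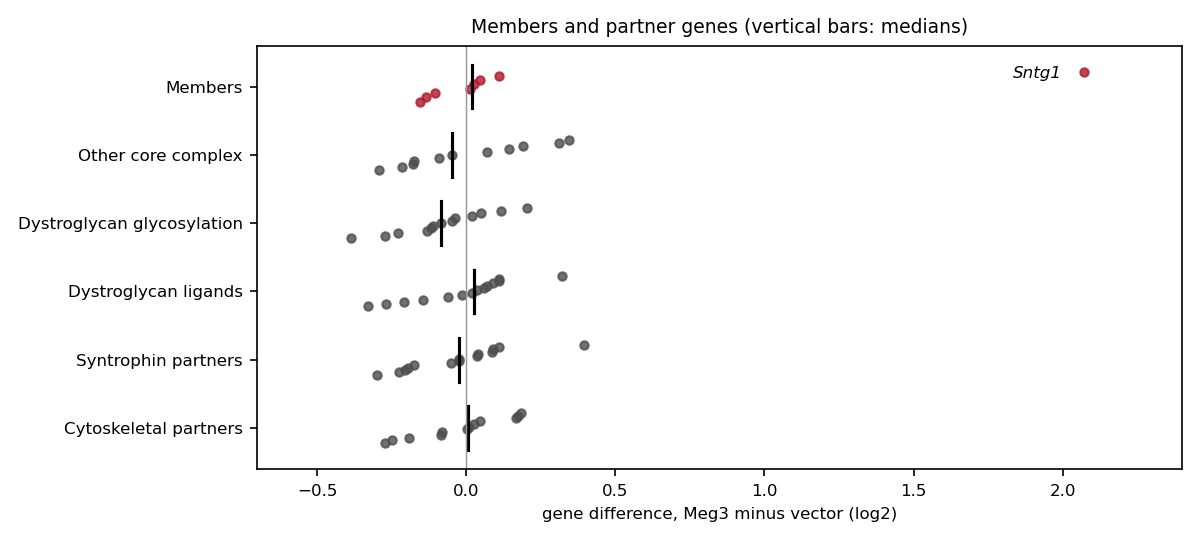
Log2 difference, Meg3 minus vector, of the 8 members (red) and of the measured genes of 5 partner lists (grey), 1 point per gene, with a vertical bar at each median. Sntg1 stands alone at 2.07, and all partner genes lie between -0.39 and 0.40.

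Genes next to the members on their chromosomes were also read, up to 10 measured genes on each side and 156 in all, in the order of the GRCm38.p6 gene table. By limma 1 was called, where 0.666% of all genes were. The 20 neighbours of Sntg1 had a median difference of -0.00 and differences from -0.35 to 0.54. By limma 0 of them were called, and 2 had an unadjusted p under 0.05, where 6.96% of all genes did. The adjacent genes on either side, Pcmtd1 and Rrs1, were at -0.02 (SE 0.18) and 0.19 (SE 0.18). The called gene was Tmed6, which encodes a trafficking protein of the secretory pathway and lies 4 measured genes from Sntb2. It read 7.61, 7.47 and 7.65 in the Meg3 cultures, against 6.46, 6.39 and 6.69 in the vector cultures, with no overlap. Its difference was 1.06 (SE 0.13; limma adjusted p = 0.0113), and with 1 array left out at a time it was called in 2 of 6 fits (adjusted p from 0.00806 to 0.107). It kept its call without vector replicate 2 or without vector replicate 3. It lost it with the median of its 4 probe sets (limma adjusted p = 0.105) and with bright probe sets only (0.123).

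Markers of other cell types were read beside these values. By limma 0 of 10 skeletal muscle, 0 of 10 fibroblast, 0 of 6 glial, 0 of 6 other islet and 0 of 6 duct and acinar markers were called. Of all genes 0.666% were called. At an unadjusted p under 0.05 by limma, which 6.96% of all genes passed, 1 of these markers was lower. It was the duct marker Spp1, named for that reason, which read 11.83, 11.86 and 11.86 in the Meg3 cultures, against 12.43, 12.14 and 12.42 in the vector cultures. Its difference was -0.48 (SE 0.12; adjusted p = 0.231 by limma). Without the 2 arrays that stood apart, where 4.01% of genes were called lower, it was called lower, at -0.56 (adjusted p = 0.00821 by limma). The 6 duct and acinar markers as a list had a median difference of 0.05, and most of them were higher. Their mean level ran from 6.33 to 6.49 in the Meg3 cultures and from 6.34 to 6.54 in the vector cultures, with overlap. The part of Spp1 in the members' values was not tested. The mean level of the muscle markers ran from 5.98 to 6.12 in the Meg3 cultures and from 5.92 to 6.23 in the vector cultures. That of the glial markers ran from 5.91 to 6.09 in the Meg3 cultures and from 5.93 to 6.24 in the vector cultures, and both lists overlapped between the clones. Of the 10 beta cell markers 0 were called by limma, with 1 lower at an unadjusted p under 0.05, beside the same 0.666% and 6.96% of all genes. Their mean level was slightly lower in the Meg3 cultures, at 10.17 to 10.22, against 10.26 to 10.28 in the vector cultures, and its part in the members' values was not tested.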

How the data were processed

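Total RNA (6 µg per culture) was hybridised to 6 arrays, 3 of the Meg3 clone and 3 of the vector clone. The deposited table holds the authors' log2 signals of single probe sets. The submitters' processing notes name RMA and Partek. Their versions, and the build behind the annotation, were not given in the sources used here. Array medians of the deposited values still ran from 7.02 to 7.19. Of 241419 probe sets, 212097 had 1 gene symbol, 4475 several and 24847 none in the array annotation. A gene's value was the mean log2 value of its single-symbol probe sets. Symbols were updated through the GRCm38.p6 gene table, where 2742 matched as synonyms and 53 not at all. R 4.3.3 with limma 3.58.1 fitted the Meg3 minus vector difference of every gene (two-sided moderated test from lmFit and eBayes), with p-values adjusted by Benjamini-Hochberg over all genes and calls at an adjusted p under 0.05. The script was tested on simulated data whose noise was independent between genes, so that test does not cover shifts shared over an array. Errors of differences are moderated standard errors.

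The members and gene lists were chosen with earlier results of these data known. Named were all members, Meg3, Ptprn and Dgkz, called list genes or else the 2 brightest per list, called neighbours and the 5 genes most like Sntg1. Beyond this rule, Sgcz, Lama1, Aqp4, Atp2b4, Spp1, Gcg and the adjacent genes Pcmtd1 and Rrs1 were named after their values were seen. Arrays carry no read depth, so their number limits the precision. Alternatives were a replicate block, centring, repeated quantile normalization, leaving out the dimmest 30%, the median or the bright probe sets of a gene, trended robust eBayes, array weights, and leaving out arrays.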

Additional observations from a re-analysis of the deposited data

How the results depend on the processing

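The difference of Sntg1 was 2.26 for the median of its probe sets and 2.02 to 2.15 with 1 array left out. Because Sntg1 was chosen for its difference on these arrays, this is a description and no support for it. In the 15 alternatives 0 other members were called. The counts over all genes, 41 higher and 95 lower, were 11 and 19 with the replicate block, 16 and 42 with the median of probe sets, 1063 and 1619 with array weights, and 292 and 819 without Meg3 replicate 1 and vector replicate 2. Leaving out any of the 6 arrays moved both by over 1.5 times, from 8 higher (without Meg3 replicate 3) to 78 (without vector replicate 2), and from 14 to 271 lower for the same arrays. The cause was not tested. Deviations of same-numbered arrays from their clone means correlated at -0.61, -0.63 and 0.28. Those of Meg3 replicate 1 and vector replicate 2, the arrays that stood apart, correlated at 0.65. Deviations from a mean of 3 arrays are not independent, so these values cannot tell whether the numbers mark pairs. The main fit did not take the numbers as pairs.

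Of single probe sets, 0 were called higher and 2 lower. Centring gave 7 and 18, quantile normalization again 8 and 17, leaving out the dimmest 30% 10 and 17, trended robust eBayes 8 and 8, and array weights 189 and 454. The replicate block, leaving out both arrays that stood apart and leaving out any single array each gave 0 lower.

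Array weights called 1063 of all 20416 genes higher and 1619 lower. In that fit 2 core complex genes were called higher and 1 lower, and 0 glycosylation genes higher and 2 lower. The counts were 1 and 2 for ligand genes, 1 and 2 for syntrophin partners, and 1 and 1 for cytoskeletal partners. Without both arrays that stood apart, 1.43% of all genes were called higher and 4.01% lower. There 1 syntrophin partner was higher and 1 lower, and 1 ligand gene was lower. Of the 156 neighbours of members, 8 were called higher and 18 lower with array weights, and 1 higher and 5 lower without both arrays. The counts over all genes given above stand beside these too. With the replicate block, the median or the bright probe sets 0 neighbours were called (Tmed6 had a limma adjusted p of 0.0832 with the block), and with 1 array left out 0 to 1 higher and 0 to 1 lower (the 1 lower without vector replicate 2).

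The differences of uncalled members moved within -0.31 to 0.17 under the alternatives other than leaving out 1 array. Those of Sntg2, Sntb1, Utrn and Dtnb took both signs there. Dmd was -0.03 with the median of probe sets and -0.24 with the bright ones. Dmd and Dtna fell among the dimmest 30% and have no value there. The last block of Dmd ranged from -0.57 to -0.35 with 1 array left out.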
